A study of Mus musculus with 5 samples.

Results

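The hair shaft keratins examined here are 10 genes of the deposited count table, found by matching its Entrez identifiers to mouse symbols, out of 27179 identifiers in all. They comprise 6 type I genes (Krt31, Krt32, Krt33a, Krt33b, Krt34 and Krt35) and 4 type II genes (Krt81, Krt82, Krt84 and Krt86). The study sequenced total RNA libraries of ear skin, with 3 control libraries and 2 libraries of mice lacking Cd1d, the gene of the lipid-presenting molecule CD1d. The control titles give the genotype as Cd1d +/- while the genotype tag says WT, so these mice are called controls. The KO titles give Cd1d -/-, and the series names B6 mice. Age, sex, hair cycle stage and the number of mice behind each library are not given in the labels, so p-values measure the spread between these 5 libraries, which may be technical.

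Hair keratins are the acidic (type I) and basic (type II) intermediate filament proteins that pair into the hard, sulphur-rich fibre of the hair. They are made by keratinocytes that leave the matrix of a growing follicle and harden into the cortex and cuticle of the shaft, after which keratin-associated proteins cross-link the filaments. A follicle at rest makes no new shaft, so the mRNAs of these keratins mark follicles in their growth phase. Krt84 stands apart, because its human counterpart is known from the tongue and the nail and not from the hair follicle.

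All type I members lay on chromosome 11 and all type II members on chromosome 15 (GRCm38, RefSeq spans), in the keratin gene clusters. In order of position, the type I members were Krt33a (100011199 to 100016212), Krt33b (100023634 to 100029868), Krt34 (100037347 to 100041554), Krt31 (100046646 to 100050551), Krt32 (100080848 to 100088269) and Krt35 (100092192 to 100096224). The type II members were, in order, Krt81 (101459061 to 101463765), Krt86 (101473478 to 101479983), Krt84 (101525026 to 101532820) and Krt82 (101541216 to 101550659). Genes lying between the members were not examined. No member overlapped another annotated RefSeq gene. The type I transcripts had 7 exons each and the type II transcripts 9 (GENCODE).

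RefSeq promoter sequences (GRCm38.p6) were matched for 6 of the 10 members. The 120 bases before the annotated start are shown for these, 5′ to 3′ on the strand of the gene, because 4 of them were high together in a single library while Krt84 was not. Capitals mark TATAAA, the TATA box motif.
Krt31, chr11:100050552-100050671, minus strand: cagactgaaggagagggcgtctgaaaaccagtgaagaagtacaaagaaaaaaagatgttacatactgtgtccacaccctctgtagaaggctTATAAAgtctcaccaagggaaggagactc
Krt33b, chr11:100029869-100029988, minus strand: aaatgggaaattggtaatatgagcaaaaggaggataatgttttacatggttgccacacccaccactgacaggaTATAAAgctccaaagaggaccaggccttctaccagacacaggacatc
Krt34, chr11:100041555-100041674, minus strand: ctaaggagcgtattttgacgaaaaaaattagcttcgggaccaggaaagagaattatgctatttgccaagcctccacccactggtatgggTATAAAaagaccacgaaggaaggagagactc
Krt32, chr11:100088270-100088389, minus strand: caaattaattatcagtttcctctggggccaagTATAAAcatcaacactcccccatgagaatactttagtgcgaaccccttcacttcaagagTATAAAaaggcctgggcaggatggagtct
Krt82, chr15:101550660-101550779, minus strand: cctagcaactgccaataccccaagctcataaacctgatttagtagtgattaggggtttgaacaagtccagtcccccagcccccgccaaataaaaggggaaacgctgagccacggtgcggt
Krt84, chr15:101532821-101532940, minus strand: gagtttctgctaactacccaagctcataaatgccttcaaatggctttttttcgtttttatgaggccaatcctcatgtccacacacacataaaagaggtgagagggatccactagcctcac

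Within these stretches TATAAA began 29 bases before the start in Krt31 and Krt32, 31 in Krt34 and 47 in Krt33b. Krt32 also held it 88 bases before the start. The exact letters TATAAA were absent from the stretches of Krt82 and Krt84, and other forms of the TATA box were not searched. Over the 250 bases before the start and on both strands, TATAAA was found in 5 of the 6 members, Krt84 included, against 12.4% of 32851 promoters. The letters CTTTGA, the core that LEF1 and TCF factors bind, were found in Krt31, Krt32, Krt33b and Krt34, against 13.8% of promoters. A HOXC13 consensus (TTTATN or TTAATN followed by 2 purines) was found in all 6, against 17.2% of promoters. These matches are descriptions of letters and not measured binding sites, and the members with and without a high library both held the HOXC13 letters.

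Total counts were 32353957 to 79160005 per library, and 1 read was worth 0.0119 to 0.0303 CPM (the count scaled by library size and TMM factor to the usual common total). Cd1d1 checked the labels, with 557, 757 and 182 counts in the 3 control libraries against 61 and 48 in the KO libraries. KO replicate 1 stood apart in a small set of genes. In it, 94 of 17472 tested genes were at least 4-fold above the highest of the other 4 libraries, whereas the same rule gave 0, 0 and 1 gene for the 3 controls and 1 for KO replicate 2. Values of the members are therefore given per library and with and without KO replicate 1.

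The 10 members together had 6092 counts in KO replicate 1 and 673 to 838 in each of the other 4 libraries. Divided by the library total, with no TMM factor, this was 112 CPM in KO replicate 1 (95% Wilson interval 109 to 114) and 14.9 in KO replicate 2 (13.8 to 16). The controls had 8.97 (8.33 to 9.65), 11.4 (10.6 to 12.2) and 23.2 (21.6 to 24.9), and all intervals cover counting error only. KO replicate 1 was thus far above the other libraries, and KO replicate 2 lay inside the range of the controls. In bulk tissue, fewer cells of a type and less RNA per cell cannot be told apart.

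**Figure D1:**
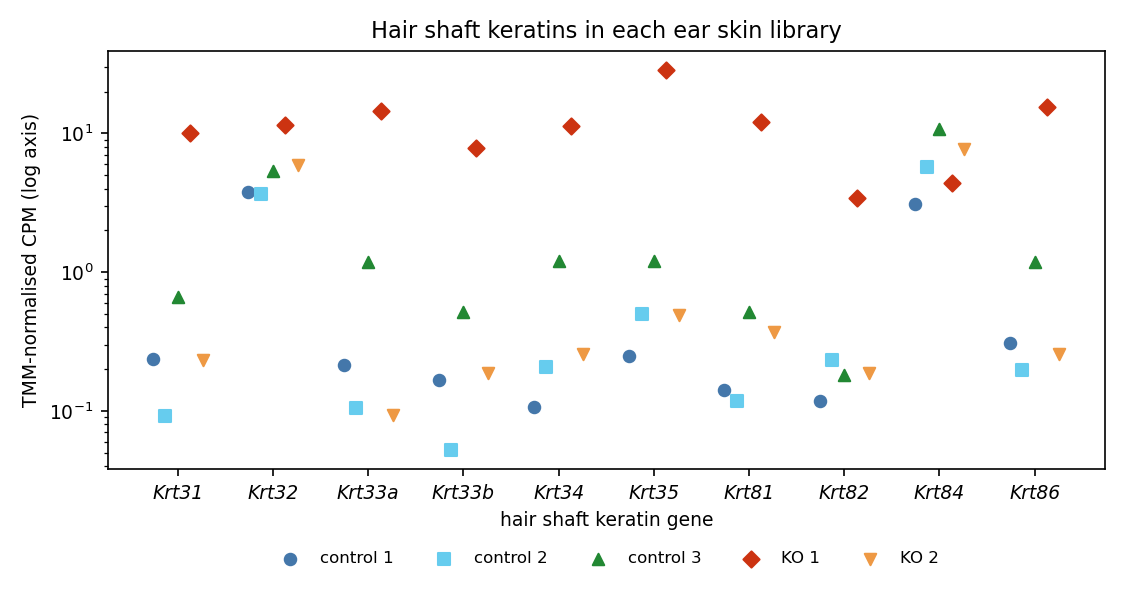
TMM-normalised CPM (log axis) of each hair shaft keratin gene, with 1 point per library for 3 control and 2 KO libraries. KO replicate 1 is the highest point for 9 of the 10 genes, and Krt84, where it lies at 4.43 CPM among the controls, is the exception. Over all genes tested, KO replicate 1 was the highest library for 3386 of 17472.

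Krt35, a type I keratin that appears early, in the matrix and lower shaft, had the highest level of all members in KO replicate 1. Its level was 0.249, 0.496 and 1.21 CPM in control replicates 1, 2 and 3, 28.8 CPM in KO replicate 1 and 0.490 CPM in KO replicate 2 (21, 38, 40, 1469 and 21 counts). KO replicate 1 was 23.7-fold above the highest other library, while KO replicate 2 lay between the first control replicates, so the groups overlapped. The fitted log2 fold change, KO over control, was 4.68 with a standard error of 1.96 and did not pass (edgeR quasi-likelihood test, adjusted p = 0.302).

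The type I keratins of the cortex, which fill the body of the shaft, were likewise highest in KO replicate 1, with control replicate 3 next. Krt31 had 0.237, 0.0913 and 0.667 CPM in control replicates 1, 2 and 3, 10.1 CPM in KO replicate 1 and 0.233 CPM in KO replicate 2. Krt33a had 0.214, 0.104 and 1.18 CPM in the controls, 14.6 CPM in KO replicate 1 and 0.0934 CPM in KO replicate 2. For both genes KO replicate 1 was high and KO replicate 2 was close to the low controls, and for Krt33a KO replicate 2 was the lowest of all. Krt33b had 0.166, 0.0522 and 0.516 CPM in the controls, 7.81 CPM in KO replicate 1 and 0.187 CPM in KO replicate 2. Krt34 had 0.107, 0.209 and 1.21 CPM in the controls, 11.2 CPM in KO replicate 1 and 0.257 CPM in KO replicate 2. Among controls, the third replicate was the highest for all 4 genes. KO replicate 1 exceeded the highest other library 15.2-fold for Krt31, 12.3-fold for Krt33a, 15.1-fold for Krt33b and 9.24-fold for Krt34. Their log2 fold changes lay between 3.77 (SE 2.0, Krt34) and 4.29 (SE 1.86, Krt33b), with adjusted p between 0.305 and 0.393 by edgeR.

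The type II keratins of the cortex, partners of the type I chains, behaved alike by library. Krt81 had 0.142, 0.117 and 0.516 CPM in control replicates 1, 2 and 3, 12.0 CPM in KO replicate 1 and 0.373 CPM in KO replicate 2. Krt86 had 0.308, 0.196 and 1.18 CPM in the controls, 15.5 CPM in KO replicate 1 and 0.257 CPM in KO replicate 2. KO replicate 1 was 23.3-fold (Krt81) and 13.1-fold (Krt86) above the next library, which was control replicate 3 for both. The log2 fold change of Krt81, 4.83 (SE 1.78, edgeR adjusted p = 0.256), was the largest of the 10 members, and that of Krt86 was 4.03 (SE 1.95, adjusted p = 0.352).

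The cuticle keratins, which belong to the scale-like outer layer of the shaft, differed from each other. Krt82, the type II member, had 0.119, 0.235 and 0.182 CPM in the controls, 3.41 CPM in KO replicate 1 and 0.187 CPM in KO replicate 2, from 174 counts in KO replicate 1 and 6 to 18 elsewhere. It followed the cortex genes in KO replicate 1, at 14.5-fold above the next library, but control replicate 3 was not raised. Krt32, the type I member, had a measurable level everywhere, with 3.78, 3.66 and 5.37 CPM in the controls, 11.4 CPM in KO replicate 1 and 5.93 CPM in KO replicate 2. KO replicate 1 was here only 1.93-fold above the next library.

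Krt32 was also the only member with both KO libraries above every control library, an arrangement found for 19.9% of all genes tested. The control libraries averaged 4.27 ± 0.95 CPM (SD, n = 3), and the KO libraries averaged 8.67 ± 3.88 CPM (SD, n = 2). Its log2 fold change of 1.04 (SE 0.27) did not pass over all genes (edgeR, adjusted p = 0.0632). It passed in 6 of the 15 alternatives run. The adjusted p was 0.0341 with no filter on low counts (edgeR), 0.00624 by DESeq2 and 0.00813 by limma voom with quality weights. By edgeR it was 0.00628 with the replicate number as a block and 0.0136 without control replicate 3. In this order, these settings called 681 (of 21698), 1029, 2687 and 1235 (of 17472) and 1842 (of 17403) genes higher. The main fit called 474 higher. The remaining alternative was the fit without KO replicate 2, with a log2 fold change of 1.43. The adjusted p over all these alternatives lay between 0.00624 and 0.559, the last without KO replicate 1, where the log2 fold change was 0.49.

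Krt84 was the member that did not follow the others. Its level was 3.10, 5.76 and 10.7 CPM in control replicates 1, 2 and 3, 4.43 CPM in KO replicate 1 and 7.70 CPM in KO replicate 2, with 226 to 442 counts in each library. Both KO libraries lay within the control range. The log2 fold change was -0.08 (SE 0.56, edgeR adjusted p = 0.957), and its sign turned to positive by limma voom (0.69), with the replicate block (0.47), without control replicate 3 (0.45) and without KO replicate 1 (0.27).

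Krt32 and Krt84 supplied most member reads outside KO replicate 1, with 580 of 710 counts in control replicate 1, 723 of 838 in control replicate 2, 529 of 749 in control replicate 3 and 584 of 673 in KO replicate 2. The other 8 members had 130, 115 and 220 counts in the controls, 5283 in KO replicate 1 and 89 in KO replicate 2. Divided by the library total, the controls had 1.64, 1.56 and 6.8 CPM, KO replicate 1 had 96.8 and KO replicate 2 had 1.97. Control replicate 3 thus held a smaller excess of its own. In 7 members (Krt31, Krt33a, Krt33b, Krt34, Krt35, Krt81 and Krt86) it was at least 2-fold above both other controls, against 1.08% of all genes tested. Control replicate 3 was also the least deeply sequenced library, and the part of depth in this excess was not tested.

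Levels can be compared between genes only per length. Per kilobase of the longest annotated transcript, Krt32 (2.57 ± 0.57 CPM per kb, SD, n = 3) and Krt84 (2.53 ± 1.5 CPM per kb) were the highest members in controls and did not differ beyond their spread. The other 8 lay between 0.0846 (Krt82) and 0.317 (Krt34) CPM per kb, with SDs from 0.0276 to 0.380, and their neighbours in this order overlapped. In KO replicate 1 alone the order was Krt35 (12 CPM per kb), Krt33a (8.66), Krt86 (7.92), Krt34 (6.97), Krt32 (6.86), Krt81 (6.51), Krt31 (6.40), Krt33b (4.94), Krt84 (1.72) and Krt82 (1.62). A single library gives no spread for this order.

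Reads of close copies may have been split or shared by the counting, whose rule no label or header used here states. The coding sequences of Krt31, Krt33a, Krt33b and Krt34 were 87.3% to 93.3% identical to each other, and Krt81 and Krt86 were 93.1% identical with a longest shared stretch of 374 bases. Krt83, a hair keratin outside the 10 genes, was 93.2% identical to Krt81. Summing the copies avoids that split. Krt31, Krt33a, Krt33b and Krt34 together had 61, 35 and 118 counts in the controls, 2233 in KO replicate 1 and 33 in KO replicate 2. Krt81, Krt83, Krt86 and Krt87 together had 80, 45 and 131 counts in the controls, 2712 in KO replicate 1 and 51 in KO replicate 2. The same library was high in both sums. Krt32, Krt35, Krt82 and Krt84 shared at most 71.1% of their coding sequence with any hair keratin compared, and Krt35 and Krt82 were high in KO replicate 1 as well. Krt35 still shared identical stretches of 102 bases with Krt34 and 75 with Krt31, and the sharing of its reads was not tested. For Krt82 the longest shared stretch was 38 bases.

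All 10 members passed the filter on low counts, 8 of them with few reads outside KO replicate 1. Of the 10, 0 passed an adjusted p of 0.05 in the comparison of KO with control (edgeR quasi-likelihood test, Benjamini-Hochberg over 17472 genes), where 2.71% of all genes were called higher and 1.05% lower (474 and 183 genes, against 268 and 974 with library size alone in place of TMM). At an unadjusted p under 0.05, 2 members, Krt32 and Krt82, were counted (3819 of all genes). DESeq2 called 3 members higher (Krt32, Krt81 and Krt82), where it called 5.89% of all genes higher (1029 genes). The median log2 fold change of the members was 4.10, against -0.02 over all genes tested.

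Leaving out a KO library moved these values to opposite sides. Without KO replicate 1 the median of the members was -0.26, 0 of 10 passed (0.00554% of all genes were called higher, 1 gene of 18041), 6 had a negative and 4 a positive log2 fold change, and the values ran from -2.25 (Krt33a) to 0.69 (Krt81), with adjusted p between 0.559 and 0.982 by edgeR. Without KO replicate 2 the median was 5.11 and 7 of 10 passed as higher (Krt31, Krt32, Krt33b, Krt35, Krt81, Krt82 and Krt86), with a lowest adjusted p of 0.000248 for Krt81 (edgeR), where 0.667% of all genes were called higher (121 of 18132). In each of these fits a single KO library was assumed to vary like the controls. The size of the difference between KO and control in the members thus rested on KO replicate 1.

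**Figure D2:**
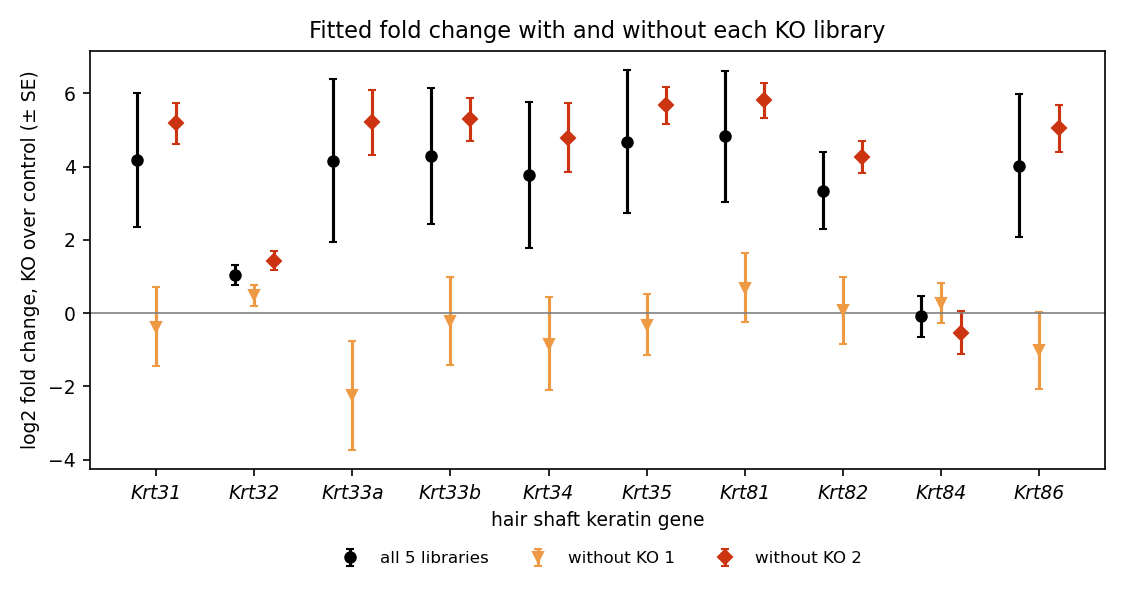
Fitted log2 fold change, KO over control, of each hair shaft keratin gene with its standard error, from all 5 libraries and with either KO library left out. Without KO replicate 1 the values run from -2.25 to 0.69, and without KO replicate 2 from -0.53 to 5.81.

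Across all genes, 8 of the 10 members were among the 94 genes at least 4-fold higher in KO replicate 1 than in any other library, and these 94 made up 0.538% of the genes tested. The 8 exceeded the next library between 9.24-fold (Krt34) and 23.7-fold (Krt35), while Krt32 (1.93-fold) lay below that limit and Krt84 lay at 0.41 of the highest other library. The members ranked from 10 (Krt35) to 53 (Krt34) among all genes for this ratio, apart from Krt32 at 145 and Krt84 at 16750. The genes were chosen with the high library known, so these shares describe the pattern and test nothing.

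**Figure D3:**
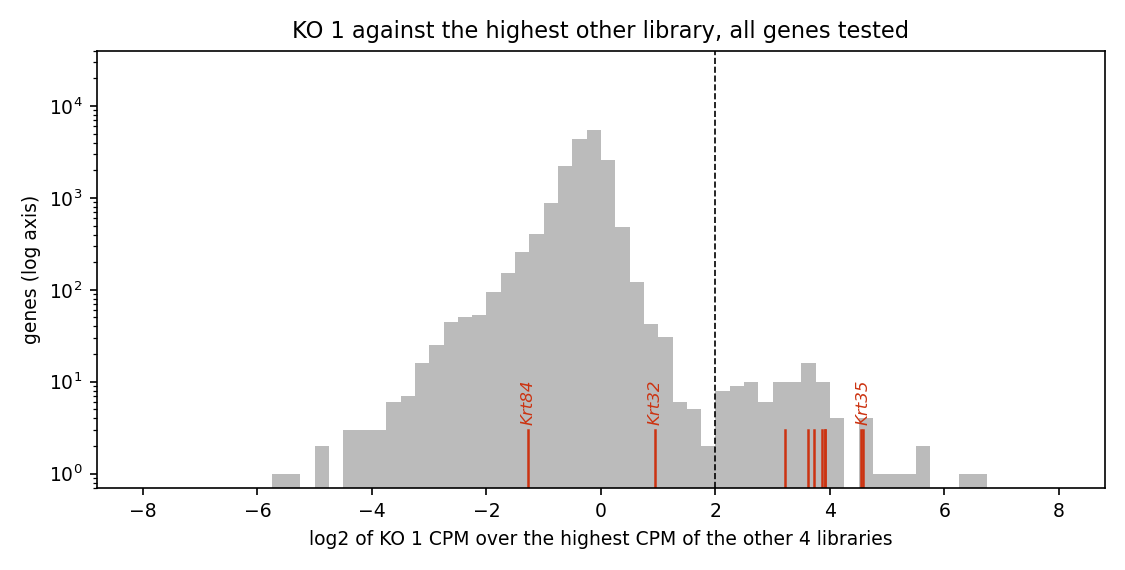
Number of genes (log axis) by the log2 ratio of their CPM in KO replicate 1 to the highest CPM of the other 4 libraries, over all genes tested, with red marks for the 10 hair shaft keratins and a dashed line at 4-fold. A group of 94 genes lies to the right of the line and holds 8 of the members, while Krt32 and Krt84 lie to its left.

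The genes whose pattern over the 5 libraries was most like that of the members were other products of the hair shaft. Likeness was the Euclidean distance between a gene's centred log2(CPM + 0.5) values and the median of the members, where Krt31 had 0.15, Krt32 2.32 and Krt84 3.84. The 8 nearest other genes were Krtap7-1 (0.26), Krtap11-1 (0.30), Krtap4-16 (0.32), Krtap4-1 (0.34), Krt83 (0.37), Krt87 (0.42), Krtap28-13 (0.44) and Krtap22-2 (0.46). They comprise 6 keratin-associated protein genes, which cross-link hair keratin filaments, and 2 further hair keratins. Krtap11-1 had 4, 4 and 10 counts in the controls, 402 in KO replicate 1 and 4 in KO replicate 2. Of the members, Krt31, Krt33b (0.23) and Krt81 (0.43) were nearer to the median than the last of these genes, and the other 7 were farther, among them Krt86 (0.48), Krt34 (0.50), Krt33a (0.73), Krt35 (1.02) and Krt82 (1.33).

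Other genes of the shaft and its sheath were also high in KO replicate 1. Of the other hair keratins, 4 of 6 could be tested, 0 passed, and their median log2 fold change was 3.42 (Krt36 2.03, Krt40 3.04, Krt83 4.05), which became -0.82 without KO replicate 1. Krt39 had too few counts and Krt85 was not analysed here. Of 9 genes of the inner root sheath, the layer that moulds the growing shaft, 8 were tested and 0 passed in the main fit (edgeR). Their median log2 fold change was 5.18, against 0.00 without KO replicate 1. Of these genes, 6 passed as higher with robust estimation off, 4 by DESeq2, 2 with the replicate block and 0 by limma voom. Over all 17472 genes those settings called 483, 1029, 1235 and 2687 higher. Krt71, a keratin of that sheath, had 2.68, 1.38 and 4.49 CPM in the controls, 191 CPM in KO replicate 1 and 2.82 CPM in KO replicate 2. Of 55 keratin-associated protein genes 39 were tested and 1 passed as higher, where 2.71% of all genes did. This was Krtap19-4 (log2 fold change 2.31, edgeR adjusted p = 0.0478). The median of the list was 3.36, against 0.00 without KO replicate 1. No gene of the list passed without control replicate 1 (0 of all genes) or with the offset on transcript length (22 of all genes, edgeR). None of the 10 left by the filter of 1 CPM in 2 libraries passed either. With robust estimation off 5 passed as higher, by DESeq2 7 and with the replicate block 15. Over all 17472 genes these settings called 483, 1029 and 1235 higher. KO replicate 1 was the highest library for all 39 keratin-associated genes tested, against 3386 of 17472 over all genes. Its counts also entered the filter on low counts, so this share describes the pattern and tests nothing. Of 8 non-keratin genes of the shaft 0 passed and the median was 2.17, against 0.21 without KO replicate 1, with 1.22 for Padi1, an enzyme that converts arginine to citrulline, and 2.52 for Tchhl1.

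Regulators of the shaft programme were less far apart between the libraries. Of 18 genes 0 passed, and the median log2 fold change was -0.05. Hoxc13, a homeobox factor that switches on hair keratin genes, had 5.11, 6.55 and 7.22 CPM in the controls, 13.1 CPM in KO replicate 1 and 7.66 CPM in KO replicate 2 (log2 fold change 0.73, SE 0.23, edgeR adjusted p = 0.103). Both KO libraries lay above the controls for Hoxc13, and KO replicate 1 was 1.71-fold above the next library. Foxn1, a factor of shaft keratinocytes that is mutated in nude mice, had 9.27, 7.46 and 12.7 CPM in the controls and 10 and 8.22 CPM in KO. Lef1, the nuclear partner of Wnt signals in the matrix, had 3.05, 3.33 and 4.40 CPM in the controls and 5.74 and 3.24 CPM in KO. Shh, a signal of the growing matrix, was the single regulator over 4-fold in KO replicate 1, with 8, 14 and 12 counts in the controls, 138 in KO replicate 1 and 3 in KO replicate 2, and it was named after its values were seen.

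Lists for the other cells of the follicle and the ear had medians between -0.29 and 0.55 in KO replicate 1. Medians of log2(CPM + 0.5) against the control mean were 3.72 for the members in KO replicate 1 and -0.10 in KO replicate 2. In KO replicate 1 they were -0.13 for 9 proliferation genes, 0.04 for 8 genes of the outer root sheath and bulge and -0.05 for 10 melanocyte genes. Mki67, a marker of dividing cells, had 89.6, 95.7 and 78.5 CPM in the controls and 79.9 and 82.1 CPM in KO. They were 0.10 for 8 interfollicular epidermis genes, 0.07 for 8 sebaceous genes and -0.11 for 6 tested cartilage genes. The 8 dermal papilla genes had medians of -0.29 and -0.28 in KO replicates 1 and 2. In both KO libraries 4 of them lay below every control, as did 3488 of all 17472 genes tested. Muscle (0.33 and 0.58 in KO replicates 1 and 2, 7 genes, 3 higher by edgeR) and adipocyte genes (0.55 and 0.29, 6 genes, 1 higher) were above the control mean in both KO libraries. Of all genes tested, 2.71% were called higher by edgeR. With the length offset or without control replicate 1, 0 genes of both lists passed (22 and 0 of all genes, edgeR). DESeq2 called 6 muscle and 2 adipocyte genes higher, and limma voom 6 and 3 (1029 and 2687 of all genes). The 5 genes of the companion layer, the medulla and activated outer layers had a median of -0.24 in KO replicate 1 and went far apart there. Krt75, a keratin of the companion layer, had 19.7, 16.2 and 19.2 CPM in the controls, 42 CPM in KO replicate 1 and 20.9 CPM in KO replicate 2 (log2 fold change 0.78, SE 0.24, edgeR adjusted p = 0.0968). Krt17 was also highest in KO replicate 1 (780 CPM, against 739 in KO replicate 2 and 507 to 619 in the controls). Krt6b, named after its values were seen, was at 0.051 of the control mean in KO replicate 1 and at 0.299 in KO replicate 2. Its highest control was replicate 2, at 10.9 CPM. No gene of the other lists in this paragraph passed (edgeR). The muscle genes were Pvalb (log2 fold change 0.94), Tnnc2 (0.71) and Mylpf (0.60), all of fast muscle fibres, and the adipocyte gene was Cfd (0.71), which encodes adipsin. The part of muscle and fat content in the hair keratin values was not tested.

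**Figure D4:**
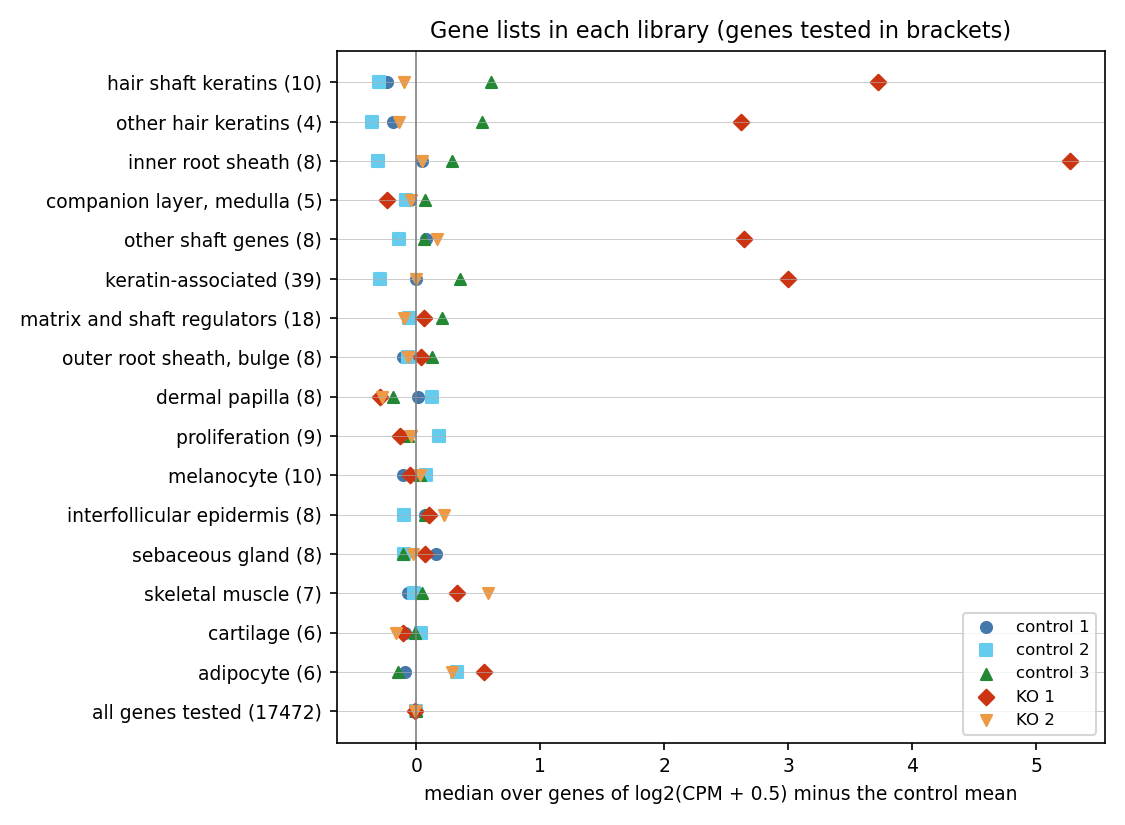
Median over the tested genes of each list of log2(CPM + 0.5) minus the control mean, with 1 point per library and the number of genes in brackets. KO replicate 1 lies between 2.62 and 5.27 for the 5 lists of the shaft and inner root sheath and between -0.29 and 0.55 for the remaining lists.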

How the data were processed

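Ear skin RNA of 3 control and 2 Cd1d KO samples was sequenced as total RNA libraries, and groups and replicate numbers came from the sample titles. The deposited table holds raw read counts per Entrez gene. Per the submitters' processing notes, FastQC, HISAT2 2.0.4 and DESeq2 1.16.1 were used with GRCm38 (mm10). For the counting program, its strand setting and its treatment of shared reads, the settings were not given in the sources used here.

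Symbols were taken from RefSeq (25275 of 27179 identifiers) and lengths from the longest GENCODE transcript (21572). Low counts were removed with filterByExpr (minimum 10, total 15), leaving 17472 genes. KO was compared with control by edgeR 4.0.16 (R 4.3.3, TMM, robust quasi-likelihood F test, Benjamini-Hochberg, threshold 0.05). The common biological coefficient of variation was 0.154, and SE is the log2 fold change divided by the root of F. Replicate libraries differed beyond sampling noise (chi-square divided by its degrees of freedom 24 to 80.7), and none was a duplicate. The fit was also run on simulated counts with a common dispersion and equal changes in both KO libraries. A rise in a single KO library, as seen in the members, was not simulated.

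The members and gene lists were chosen with earlier results of these data known. All 10 members were named, with up to 3 genes of smallest p per other list, a few fixed marker genes, and the 8 nearest genes by library pattern. Exceptions are marked. The alternatives were other scalings, filters and tests (DESeq2 1.42.0, limma 3.58.1), robust estimation off, a replicate block, an offset on transcript length (mgcv 1.9.3) and each library left out.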

Additional observations from a re-analysis of the deposited data

How the results depend on the processing

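No hair shaft keratin passed with DESeq2 size factors, upper quartile or library size scaling, the filter of 1 CPM in 2 libraries, or the offset on transcript length, and their median log2 fold change stayed between 2.95 and 4.10 in every alternative that kept all 5 libraries (over the 6 members left by the filter of 1 CPM). Over all genes, 681 of 21698 were called higher with no filter on low counts. Of 17472 genes, 483 were called higher with robust estimation off, 1029 by DESeq2, 2687 by limma voom and 1235 with the replicate block. Against these, the count of members past the threshold, all higher, was 1 with no filter on low counts (Krt32). The member count was 1 with robust estimation off (Krt81), 3 by DESeq2, 1 by limma voom and 2 with the replicate block (Krt32 and Krt33b). With single libraries left out it ranged from 0 to 7 and the median log2 fold change from -0.26 to 5.11.

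Over all genes the count of 657 became 1242 with library size alone (268 higher, 974 lower, against 474 and 183, with the median of all genes moved from -0.02 to -0.17), 1036 with no filter, 1696 by DESeq2, 4888 by limma voom, 2037 with the replicate block, 22 with the length offset, and 0 to 3277 with single libraries left out (3277 without control replicate 3, 128 without KO replicate 2, 0 without control replicate 1, where 2253 genes had an unadjusted p under 0.05 by edgeR, and 1 without KO replicate 1). Genes of the other lists past the threshold went from 5 to 8 with library size alone, 12 with no filter, 18 with robust estimation off, 29 by DESeq2, 34 by limma voom, 37 with the replicate block, 0 with the length offset (2112 of all genes at an unadjusted p under 0.05), and 0 to 51 with single libraries left out. Apart from the fits with fewer libraries or other genes tested, the cause was not tested.

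With single libraries left out, log2 fold changes ranged from -0.37 to 5.18 for Krt31, -2.25 to 5.51 for Krt33a, -0.21 to 5.29 for Krt33b, -0.83 to 5.19 for Krt34, -0.32 to 5.67 for Krt35, -1.01 to 5.04 for Krt86 and -0.53 to 0.45 for Krt84. All their negative values, apart from those of Krt84, came without KO replicate 1. Krt84 also turned positive by limma voom (0.69) and with the replicate block (0.47).

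Same-numbered libraries correlated at 0.016 and 0.0641 in their deviations from the group means. With 2 KO libraries the KO deviations mirror each other, so the crossed pairs gave -0.016 and -0.0641 by construction. Whether the replicate numbers pair the samples can therefore not be decided from these values. Counts of 4 to 40 per library for 8 members outside KO replicate 1 limit how closely KO replicate 2 and the controls can be compared.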

Other observations

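Of the 94 genes at least 4-fold higher in KO replicate 1 than in any other library, 62 belonged to the lists used here and 32 did not. The 62 comprise 36 keratin-associated protein genes, 8 hair shaft keratins, 8 inner root sheath genes, 5 non-keratin shaft genes, 4 other hair keratins and 1 regulator, and none came from the lists for dividing cells, dermal papilla, melanocytes, outer root sheath, companion layer and medulla, epidermis, sebaceous gland, muscle, cartilage or fat. Among the 32, named after their values were seen, Crym had 1.96 to 3.15 CPM in the other libraries and 14.1 CPM in KO replicate 1, Vsig8 0.26 to 3.46 CPM against 23.4 CPM, and Foxe1, a forkhead factor, 0.13 to 0.61 CPM against 5.60 CPM. Krt6b, a keratin of activated epithelium also named after its values were seen, went the other way. It had 0.274 CPM in KO replicate 1, 1.61 CPM in KO replicate 2 and 2.16, 10.9 and 3.06 CPM in the controls. Both KO libraries thus lay below every control, as for 3488 of all 17472 genes tested. Krt6b did not pass between KO and control (log2 fold change -2.55, edgeR adjusted p = 0.35).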
